A study of Mus musculus with 7 samples.

Results

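R-spondins and LGR receptors were read in muscle satellite cells, the resident stem cells of skeletal muscle, as 9 genes: the receptors Lgr4, Lgr5 and Lgr6, the secreted ligands Rspo1, Rspo2, Rspo3 and Rspo4, and the ubiquitin ligases Znrf3 and Rnf43. Every probe other than a control whose gene name on the array matched one of these symbols was taken, which gave 10 probes of 55681, with 2 probes for Lgr6 and 1 for each other gene. RNA came from male C57BL/6 mice and was measured on 7 single-colour Agilent arrays (Cy3). The 4 geriatric arrays are labelled 28, 28, 29 and 30 months of age and the 3 young arrays 2, 2 and 3 months. No allele, treatment or injury is given in the labels for either group. Both groups were sorted from dissociated muscle with the same gate, positive for integrin alpha7 and CD34 and without CD31, CD45, CD11b or Sca1, and the RNA was then amplified. The labels do not say whether a sample was 1 mouse or a pool. The p-values set a group difference against the spread between these samples, and how far single mice vary is not known from them.

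R-spondins bind an LGR receptor together with Znrf3 or Rnf43, which are membrane ubiquitin ligases that remove Frizzled receptors and LRP co-receptors from the cell surface. The complex is cleared from the membrane, Frizzled receptors accumulate, and the cell becomes more sensitive to Wnt ligands. R-spondins by themselves do not replace a Wnt ligand. Znrf3 and Rnf43 are target genes of beta-catenin in several tissues and so form a feedback loop, and Lgr5 is best known as a marker of stem cells in intestine and hair follicle.

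The probes on which the results turn are 60 bases long and are shown because each gene's value rests on the signal of 1 spot, and because the 2 Lgr6 probes gave different readings. The first 30 bases of each are printed 5′ to 3′, in lower case with no base marked, as the array files give them. Positions are those of the whole probe on mm9, and which exon or untranslated region a probe lies in was not analysed here.
Lgr4 (chr2:109853567-109853626, plus strand): gctctgacatttccaaatttgttgaagtta
Lgr6, probe 1 (chr1:136883782-136883841, minus strand): tggagaagagctcctgcgactccacccaag
Lgr6, probe 2 (chr1:136880538-136880597, minus strand): gtctctgttctacatatttggatctgacaa
Rspo2 (chr15:42852727-42852786, minus strand): ccttaggtcagtttgtccttagattatgaa
Rspo3 (chr10:29172930-29172989, minus strand): ggatactactttctaacaaggtgtatctag
Znrf3 (chr11:5180918-5180977, minus strand): actccactggagtctaggcacaacccggga
GC content of the whole probes was 35.0% for the Lgr4 and Rspo3 probes, 38.3% for Rspo2, 41.7% for Lgr6 probe 2 and 55.0% for Lgr6 probe 1 and Znrf3. The other members were read at chr10:114887403-114887462 (Lgr5), chr4:124686270-124686329 (Rspo1), chr2:151700345-151700404 (Rspo4) and chr11:87548958-87549017 (Rnf43).

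Geriatric replicates 1 and 2 carry the same sample name in their descriptions. For 95.003% of probes their processed signals differed by under 2 combined measurement errors, a share that was 58.4% to 65.7% in the other array pairs, so both were averaged and counted as 1 sample, leaving 3 geriatric and 3 young samples. The arrays of both groups were on 1 slide and were scanned on 1 day. Probes well above background numbered 38042 to 40996 on geriatric arrays and 40255 to 41282 on young arrays. All 11 satellite cell markers examined, Pax7, Myf5 and Cdh15 among them, were well above background on all 7 arrays. Itga7 and Cd34 of that list belong to the sort itself. The markers' summed signal, in multiples of each array's 75th-percentile signal, was 148 to 154 in geriatric samples and 134 to 169 in young samples. Among markers of other cell types, the list for fibro-adipogenic progenitors, which are interstitial cells of muscle, summed to 42.9 to 51.6 in geriatric samples and 32.6 to 42.8 in young samples. Of its 10 genes 7 were well above background on every array, and Pdgfra, a defining marker, on 0 arrays. This list had the largest median log2 difference of the marker lists, 0.75, but not the largest sum. Its brightest gene in each sample was Col3a1, with a log2 difference of -0.13. The macrophage list summed to 95.9 to 115 in geriatric samples and 91.7 to 101 in young samples. Nearly all of that was 1 probe of Itgam, the gene of the sort antigen CD11b. Its log2 levels were 6.51, 6.52 and 6.78 in geriatric and 6.60, 6.59 and 6.44 in young samples. The 2 other tested Itgam probes gave log2 differences of 2.12 and -0.11, against 0.06 for this probe. Of the 8 macrophage genes 4 were well above background on every array, and Lyz2 and C1qa on 0 arrays. The pericyte and smooth muscle list summed to 50.5 to 60.0 in geriatric samples and 41.9 to 58.8 in young samples. Most of that came from Notch3, whose log2 difference was 0.30. In this list 5 genes were higher and 3 lower in geriatric samples. Pdgfrb had its smallest p, with a log2 difference of 2.24 (SE 0.20, limma adjusted p = 0.060). The groups did not overlap for Pdgfrb and for Cspg4 (0.39). Kcnj8 went the other way, at -2.43 (SE 1.32, limma adjusted p = 0.768).

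Lgr4, one of the LGR receptors for R-spondins, and Znrf3 were well above background on all 7 arrays, as was Lgr6 at probe 1. Lgr5, Rspo4 and probe 2 of Lgr6 reached that mark on 0 arrays, and Rspo1, Rspo2, Rspo3 and Rnf43 were on 1 or 2 arrays each. Thus 3 of the 10 probes were above background throughout, where 60.9% of all probes on the array were. On 0 arrays were 3 of the 10, against 16.0% of all probes, and on 1 or 2 arrays 4 of the 10, against 9.86%. A signal short of that mark does not show that the transcript is absent. By the scanner's significance test, a lower bar, Rspo3 was above background on 6 arrays, Rnf43 on 4, Rspo1 on 3 and Rspo2 on 2. In RNA of a sorted population, fewer cells that express a gene and less of its RNA per cell cannot be told apart.

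**Figure D1:**
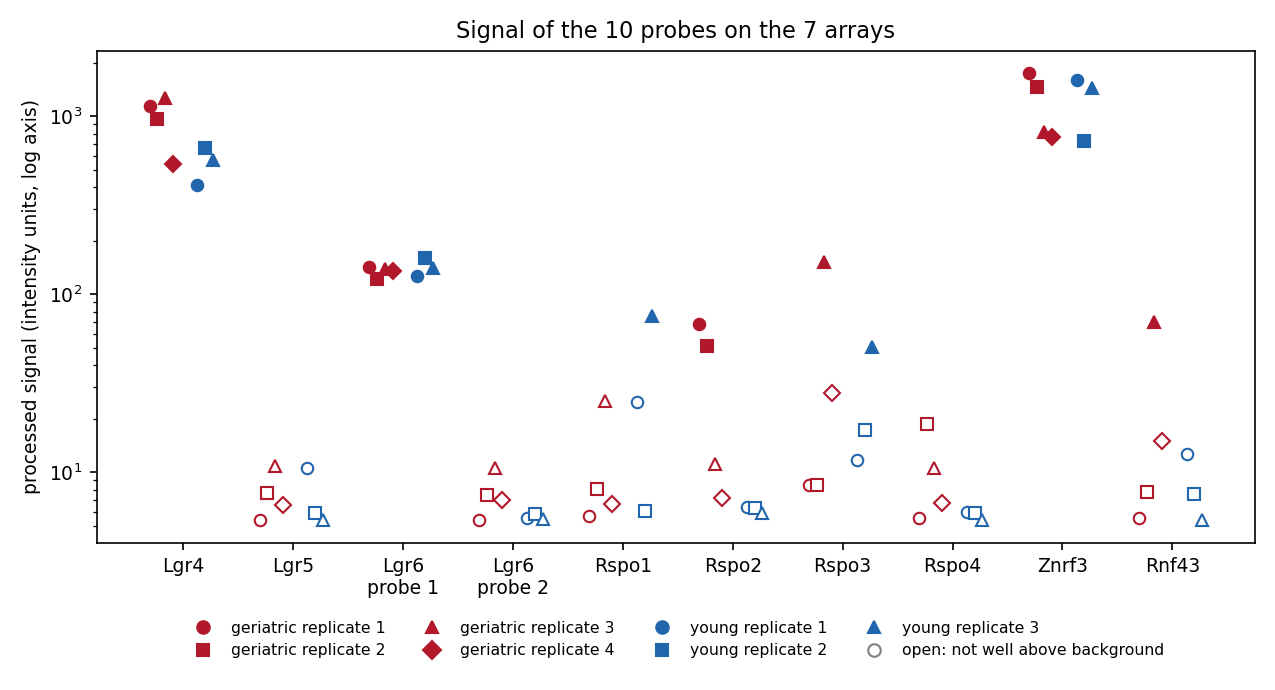
Processed signal of each of the 10 probes (intensity units, log axis) on the 4 geriatric and 3 young arrays, with a symbol for each replicate. Filled symbols are well above background and open ones are not, and heights cannot be compared between probes. Lgr4, Lgr6 probe 1 and Znrf3 have filled symbols on every array, whereas the other 7 probes have at most 2.

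Of the receptors, Lgr4 had processed signals of 1139, 970, 1261 and 540 intensity units in geriatric replicates 1 to 4, against 411, 661 and 572 in young replicates 1 to 3. Geriatric replicates 1, 2 and 3 were above every young array, and geriatric replicate 4 lay between the young values. The scanner's error model gave an error of 41.5 to 127 units to these signals. By this error 3 of the 12 pairs of a geriatric and a young array were within 2 combined errors of each other. The same held for only 4 of the 9 pairs of arrays of the same group. These pairs count geriatric replicates 1 and 2 apart.

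Scaled to each array's 75th percentile, the level of Lgr4 on the log2 scale was -0.51 in geriatric replicates 1 and 2 (averaged), -0.33 in replicate 3 and -1.30 in replicate 4, against -1.81, -1.21 and -1.49 in the young samples. The groups overlapped through geriatric replicate 4 and young replicate 2. The level averaged -0.71 ± 0.52 in geriatric and -1.51 ± 0.30 in young cells (SD, n = 3 each). This is a log2 difference of 0.79 (SE 0.32), or 1.73-fold with a 95% interval of 1.01 to 2.98. In the limma fit over 27394 features the unadjusted p was 0.0482 and the adjusted p 0.685 (Benjamini-Hochberg), so Lgr4 did not pass the threshold of 0.05. A difference of that size or more, in either direction, was seen for 13.2% of all tested features. Leaving out geriatric replicate 4 gave 1.08 (limma adjusted p = 0.434), and leaving out geriatric replicate 3 gave 0.60 (limma adjusted p = 0.839). Slide row 1 held the 3 young arrays and geriatric replicate 1, and row 2 the other geriatric arrays. Since row 2 held 0 young arrays, a slide row block and a fit within row 1 are the same contrast, geriatric replicate 1 against the 3 young arrays. Its value was 1.03, with an arm of 1 sample, and it is given as a description. The fibro-adipogenic markers, as median deviation from their own means on the log2 scale, stood at 0.13, 1.21 and 0.62 in these geriatric samples, in the same order, and at -0.43, -0.38 and -0.24 in the young samples. Their part in the difference of Lgr4 was not tested.

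Lgr6, a receptor of the same group that is known from epidermal stem cells, was nearly level at probe 1. Its signals were 143, 121, 138 and 134 intensity units in geriatric replicates 1 to 4, against 127, 159 and 141 in young replicates 1 to 3. No array stood apart. The highest signal was 1.31 times the lowest, and none of the 21 pairs of arrays differed by as much as 2 combined measurement errors. The scaled level was -3.44 ± 0.12 in geriatric and -3.43 ± 0.14 in young cells (SD, n = 3 each). The log2 difference was -0.01 (SE 0.17, limma adjusted p = 0.992), with a 95% interval of -0.42 to 0.40. The SD over the 6 samples, 0.12, was smaller than that of 94.0% of tested features. Probe 2 of Lgr6, designed on a cDNA clone and not on the RefSeq transcript of probe 1, had 5.43 to 10.6 units on all arrays and was replaced by a surrogate value near background on all 7. The probes therefore disagreed on whether Lgr6 RNA was detectable, and the level above rests on probe 1.

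Lgr5 had 5.41, 7.69, 10.8 and 6.58 intensity units in geriatric replicates 1 to 4, against 10.6, 5.87 and 5.38 in young replicates 1 to 3. Its values were surrogates on 6 arrays, and the exception, young replicate 1, was above background by the scanner's significance test but not well above it. Lgr5 thus had no measured difference between the groups.

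**Figure D2:**
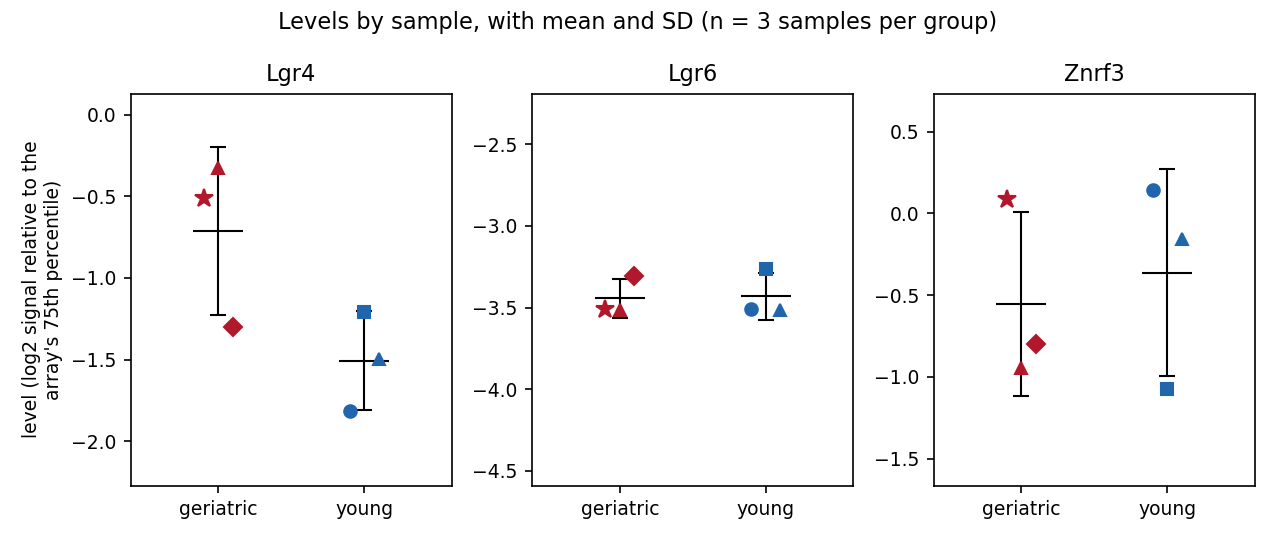
Level of Lgr4, Lgr6 (probe 1) and Znrf3 in each sample, as log2 signal relative to the array's 75th percentile. The star is the average of geriatric replicates 1 and 2, the triangle replicate 3 and the diamond replicate 4. In young cells the circle, square and triangle are replicates 1, 2 and 3. Horizontal marks and bars are the mean and SD of n = 3 samples. The groups of Lgr4 touch only through geriatric replicate 4, at -1.30, those of Lgr6 both lie between -3.52 and -3.26, and those of Znrf3 overlap throughout.

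Among the ligands, Rspo2 was the only one well above background on more than 1 array of a group. This ligand, known in mouse as a factor of limb and lung development, had 68.1 and 50.9 intensity units in geriatric replicates 1 and 2 and 11.1 and 7.13 in replicates 3 and 4. It had 6.35, 6.26 and 5.92 units in young replicates 1 to 3. The geriatric arrays with signal are the averaged pair, so the reading stands for 1 of 3 geriatric samples. The 99th percentile of 308 negative control spots was 9.99 units on the array of replicate 1 and 64.3 on that of replicate 2, so the signal exceeded it on replicate 1 only. The geriatric mean was below the weakest signals called well above background on the young arrays, and no fold is given.

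Rspo3, a ligand needed for vessels of the placenta in mouse, had 8.46, 8.47, 153 and 27.8 units in geriatric replicates 1 to 4, against 11.8, 17.4 and 50.9 in young replicates 1 to 3. It was well above background in geriatric replicate 3 and in young replicate 3, and the groups overlapped. The fibro-adipogenic markers had their highest median deviation of each group in the same samples, at 1.21 in geriatric replicate 3 and -0.24 in young replicate 3. Their summed signal in young replicate 3 was instead the lowest of the young samples, at 32.6 against 33.3 and 42.8 in replicates 1 and 2. Most of that sum was Col3a1 alone, at log2 levels of 4.71, 5.15 and 4.80 in young replicates 1 to 3. Geriatric replicates 1 and 2 (averaged) had a higher median deviation, 0.13, than young replicate 3, but less Rspo3 signal. The part of these markers in the Rspo3 signal was not tested.

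Rspo1 had 5.71, 8.03, 25.1 and 6.66 units in geriatric replicates 1 to 4, against 24.7, 6.06 and 75.9 in young replicates 1 to 3. This ligand, known in mouse for its part in ovary development, was well above background in young replicate 3 alone, and no fold is given because the young mean was below the lowest signals called well above background on the geriatric arrays. Rspo4, the ligand tied to nail formation in human, had 5.51, 18.7, 10.6 and 6.74 units in geriatric replicates 1 to 4, against 6.02, 5.93 and 5.38 in young replicates 1 to 3. It was well above background on 0 of the 7 arrays and a surrogate value on 6.

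Of the ligases, Znrf3 had 1748, 1459, 821 and 764 intensity units in geriatric replicates 1 to 4, against 1593, 726 and 1445 in young replicates 1 to 3. Each group held both high and low arrays. The scaled log2 level averaged -0.55 ± 0.56 in geriatric and -0.36 ± 0.63 in young cells (SD, n = 3 each), a log2 difference of -0.19 (SE 0.43, limma adjusted p = 0.956). The 95% interval of the difference, -1.24 to 0.86, corresponds to 0.423-fold to 1.82-fold. The sign depended on single samples, since leaving out young replicate 1 gave 0.06 and leaving out young replicate 2 gave -0.54. Geriatric replicate 1 alone against the young arrays, all in slide row 1, gave 0.51.

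Rnf43, which works alongside Znrf3, had 5.52, 7.78, 69.9 and 15.1 units in geriatric replicates 1 to 4, against 12.7, 7.59 and 5.42 in young replicates 1 to 3. It was well above background in geriatric replicate 3 alone, where the 99th percentile of the negative controls was 69.5 units. For Rnf43 too the geriatric mean did not exceed the lowest signal called well above background on the young arrays, and no fold is given.

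Of the 3 tested members, 0 passed at an adjusted p of 0.05 in limma and 1, Lgr4, had an unadjusted p under 0.05. Over all 27394 features 0.0256% passed (0.011% higher and 0.0146% lower in geriatric cells), 7.23% had an unadjusted p under 0.05, and 12.8% had groups that did not overlap, against 0 of the 3 members. Tested as probes over 41256 probes, of which 0.0145% passed, Lgr4, Lgr6 and Znrf3 had limma adjusted p-values of 0.680, 0.993 and 0.959.

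With every probe tested regardless of signal, 0 of the 9 members passed over 36406 features (limma adjusted p of 0.485 to 0.987). The differences of dim members in that fit carry a shift of the floor itself. The median log2 difference of the 8936 probes that were well above background on 0 arrays was 0.49, with 86.3% higher in geriatric samples. Rspo4, at 0.70 with an unadjusted limma p of 0.0153, the only one of the 9 under 0.05 there, and Lgr5, at 0.21, are such probes. The same fit gave 1.49 for Rspo2, 1.30 for Rnf43, 0.65 for Rspo3 and -1.05 for Rspo1, with SEs of 0.76 to 1.10. The floor differed by slide row. The median level of the 8936 probes was -7.91, -7.98 and -8.14 on the young arrays, all in row 1. It was -8.07 on the array of geriatric replicate 1, also in row 1, and -7.48, -7.20 and -7.56 on those of replicates 2 to 4, in row 2. The cause of the shift was not tested.

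**Figure D3:**
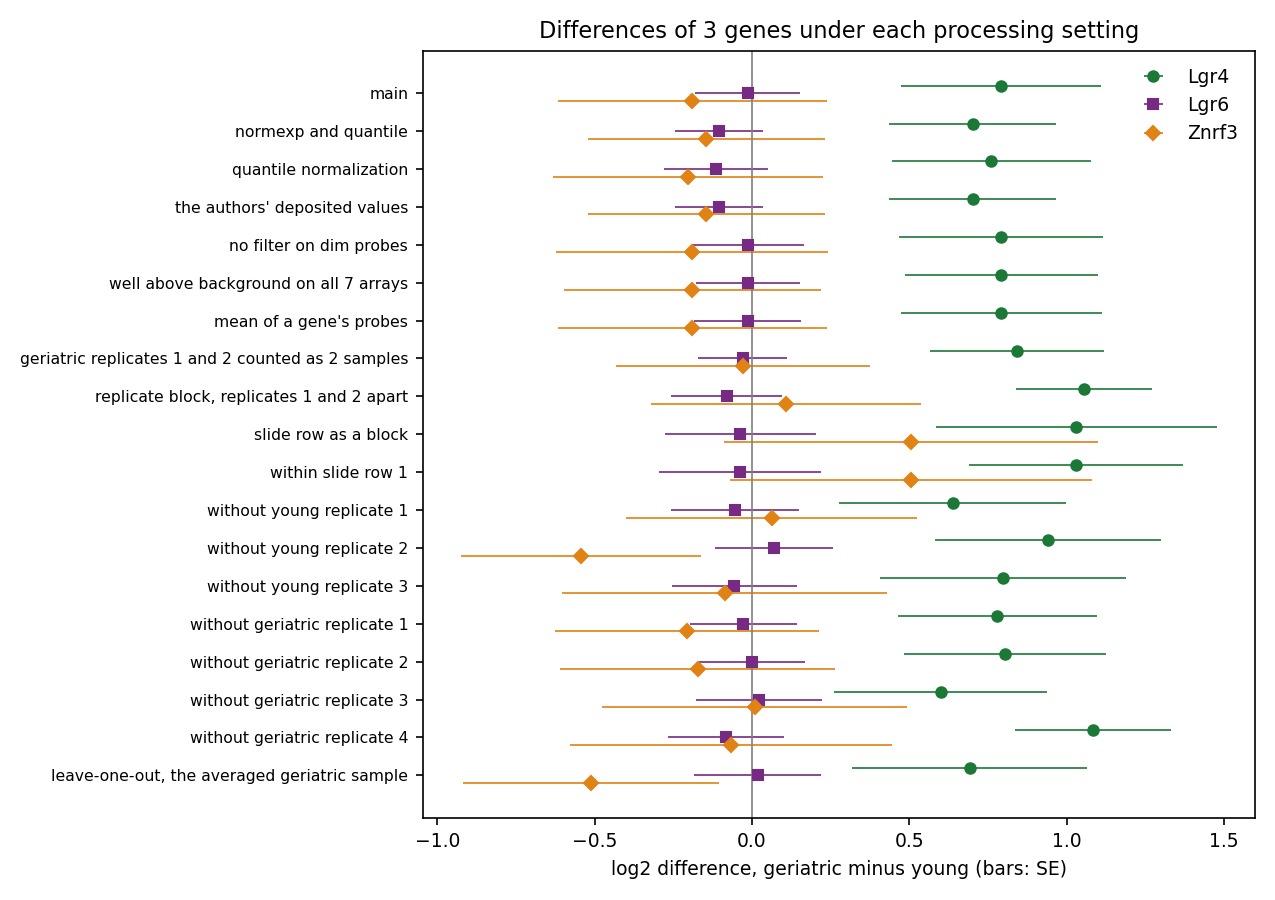
Log2 difference, geriatric minus young, with its SE, for the 3 tested members under the main setting and 18 other settings of normalization, filter, probe summary, block and left-out replicate. Lgr4 stays between 0.60 and 1.08, Lgr6 between -0.12 and 0.07, and Znrf3 between -0.54 and 0.51, on both sides of 0.

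Other genes that act with these proteins were described from lists of 47 genes, 37 of them tested. None passed in limma (adjusted p of 0.317 to 0.995). An unadjusted limma p under 0.05 was seen for 5, or 13.5%, against 7.23% of all tested features. Without Fzd10, which was well above background on 0 young arrays, it was 4 of 36. The groups did not overlap for 5 of the 37, Fzd10 among them, against 12.8% of all tested features. The median log2 difference of the 37 genes was 0.03, against -0.0024 for all tested features. Of these genes 19 were higher and 18 lower in geriatric cells, where 49.7% of all features were higher.

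Frizzled receptors and the co-receptors Lrp5 and Lrp6, which Znrf3 and Rnf43 remove, had 11 tested genes of 12, with 6 higher, 5 lower and a median of 0.11. The smallest unadjusted p-values belonged to Fzd10, Fzd4 and Fzd7. Fzd10 was well above background on 3 geriatric arrays and 0 young arrays, so it was tested only through the group in which it was high, and its test supports nothing. Its levels were -3.58, -6.32 and -4.66 in the geriatric samples, against -7.99, -7.18 and -8.22 in the young samples. Geriatric replicate 3 was not well above background, and 2 of the 3 arrays that were belong to the averaged pair. Without Fzd10 the list had 5 of 10 tested genes higher and a median of -0.0085. Fzd4, a receptor for Wnt ligands and Norrin, was at 2.39, 3.13 and 2.75 in the geriatric samples, against 1.61, 2.08 and 1.24 in the young samples, with no overlap (log2 difference 1.11, SE 0.30, limma adjusted p = 0.485). Fzd7, a receptor expressed in satellite cells, differed by 0.81 (SE 0.39, limma adjusted p = 0.738), and its other tested probe gave 0.55. Lrp5 and Lrp6 differed by 0.11 and -0.12, and the other tested probe of Lrp6 gave 0.05.

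Genes commonly used as readouts of beta-catenin had 10 tested of 12, with 4 higher, 6 lower and a median of -0.04. Those with the smallest p were Apcdd1, a membrane inhibitor of Wnt signalling (0.58, SE 0.33), the cyclin gene Ccnd1 (-0.40, SE 0.28) and the transcription factor gene Myc (-0.79, SE 0.68), with limma adjusted p-values of 0.781, 0.831 and 0.866. Lef1, a partner of beta-catenin on DNA, was well above background on 0 arrays.

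Of other partners, 8 of 9 were tested, with 3 higher, 5 lower and a median of -0.06. The syndecan gene Sdc4, a cell surface proteoglycan that binds Rspo3 in Xenopus, differed by 0.33 (SE 0.22), Usp42, a deubiquitinase that stabilises Znrf3 and Rnf43, by 0.34 (SE 0.23), and Dvl1, a Dishevelled adaptor through which the ligases reach Frizzled, by -0.24 (SE 0.18). Their limma adjusted p-values were 0.811, 0.814 and 0.838. Ndp, which encodes Norrin, a ligand also reported for Lgr4, differed by -0.03.

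Among relatives by structure, Tshr, the receptor of thyrotropin and the only other leucine-rich repeat receptor of 5 to be tested, was at 1.13, 1.497 and 1.39 in the geriatric samples, against 0.21, 0.35 and -0.43 in the young samples. All geriatric samples were above all young samples, with a log2 difference of 1.30 (SE 0.26, limma adjusted p = 0.317), and its other tested probe gave 1.14. Fshr, Lhcgr and Rxfp1 were well above background on 0 arrays. Of 9 other ligases with the domain layout of Znrf3 and Rnf43, 7 were tested, 5 of them higher, with a median of 0.17. Rnf150 was at 2.25, 2.33 and 2.31 in the geriatric samples, against 1.65, 1.74 and 1.66 in the young samples, a log2 difference of 0.61 (SE 0.14, limma adjusted p = 0.382), though its 2 dimmer probes gave 0.37 and 0.25. Rnf130 differed by 0.53 and Rnf167 by 0.32 (limma adjusted p = 0.654 and 0.858), and the other tested probe of Rnf167 gave 0.11.

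**Figure D4:**
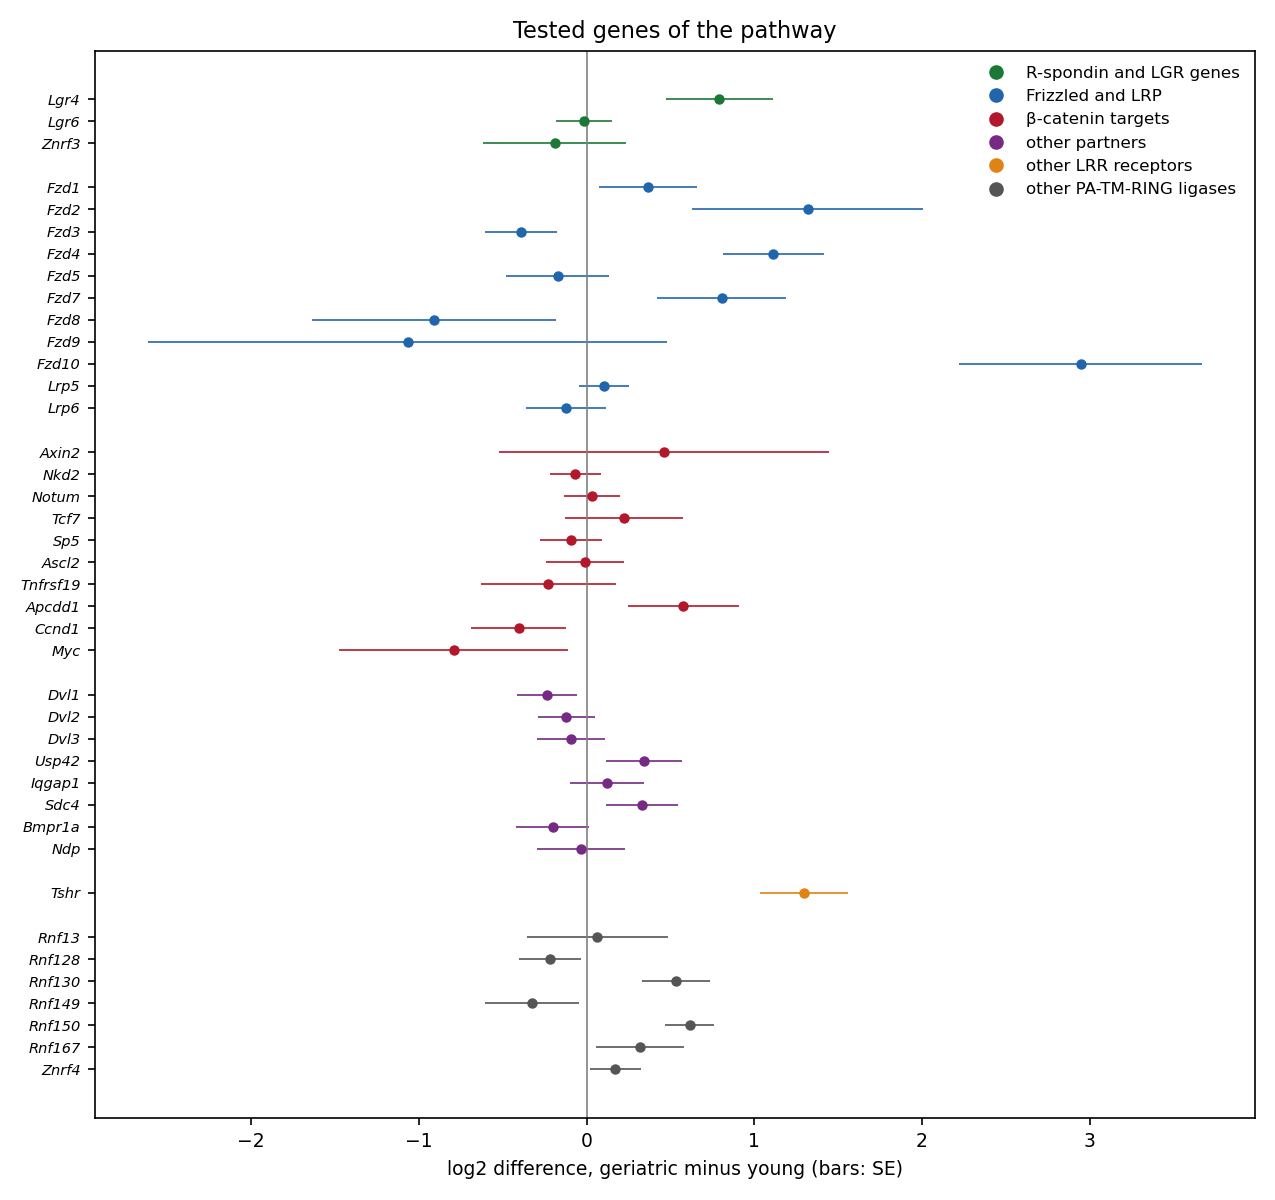
Log2 difference, geriatric minus young, of the 3 tested members and the 37 tested genes of the lists, with bars for the SE, grouped by list. The members and list genes spread on both sides of 0, and none passed the threshold. Fzd10, at 2.95, is no measured size, because it was not well above background on any young array.

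Named genes whose levels ran most like a member over the 6 samples are given as a description. For Lgr4 they were Mcm4, a subunit of the replicative helicase (Pearson r = 0.992), the cation channel gene Trpv1 (0.991) and the small GTPase gene Rab38 (0.989). Mcm4 was at 2.77, 2.78 and 2.30 in the geriatric samples, against 1.99, 2.35 and 2.11 in the young samples. For Znrf3 they were Psen2, a presenilin (0.985), Car5a, a mitochondrial carbonic anhydrase (0.984), and Tmc8 (0.983). Cyp2d26 (0.980), Fam178b (0.978) and Sec63, a factor of protein transport into the endoplasmic reticulum (0.9746), were nearest to Lgr6, whose own differences were within measurement error. Of 13269 named genes 35 had an r above 0.95 with Lgr4, 25 with Znrf3 and 11 with Lgr6. These counts were not compared with what unrelated genes would give over 6 samples. Some of the named genes reached the floor. Car5a was at -7.27, -7.54 and -8.08 in geriatric replicates 3 and 4 and young replicate 2. Probes well above background on 0 arrays had medians of -7.20, -7.56 and -7.98 there. Rab38 was at -7.77 in young replicate 1, where that median was -7.91.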

How the data were processed

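RNA of sorted satellite cells was measured on 7 arrays. The authors deposited spot intensity values from the scanner software (Agilent Feature Extraction, version 10.7.3.1), per the file headers: spatial and multiplicative detrending were on, the global background correction was off, and surrogate values were used near background. The series also has deposited log2 values of the same arrays. Its log2 differences equalled, within 0.001 for 99.996% of features, those obtained here from normexp (offset 50) and quantile normalization, but the labels do not state the authors' method.

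Levels here are log2 processed signals less the log2 75th percentile of the noncontrol spots. The spots that the scanner marked as outliers (124 to 229 an array) were dropped and replicate spots averaged, and 0 spots were saturated. A probe needed to be well above background on at least 3 arrays, and the brightest such probe stood for its gene. Groups were compared with limma 3.58.1 (R 4.3.3, data.table version 1.17.8; a 2-sided moderated test with Benjamini-Hochberg adjustment over all features), tested on simulated data. Figures used matplotlib 3.10.9 and Python 3.11.15. The number of arrays limits the precision.

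Members and lists were chosen with earlier results of these data known. All members were named. Of each list, the genes past the threshold, or otherwise the 3 with the smallest unadjusted p, were named, and for members above background on all arrays the 3 most correlated named genes. Alternatives covered normalization, the filter, the probe summary, slide row, a replicate block, and each array left out.

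Markers of other cell types in muscle were those of fibro-adipogenic, endothelial, macrophage, pericyte and smooth muscle, Schwann, tenocyte, myofibre, lymphocyte and adipocyte cells. Lists other than the fibro-adipogenic one had median log2 differences of 0.14 (endothelial), 0.22 (macrophage), 0.21 (pericyte and smooth muscle), 0.04 (Schwann), 0.63 (tenocyte), 0.27 (myofibre), 0.39 (lymphocyte) and 0.39 (adipocyte), and the fibro-adipogenic list 0.75 and satellite cell markers 0.05.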

Additional observations from a re-analysis of the deposited data

How the results depend on the processing

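The 0 calls among the members and among the list genes held under all 18 alternatives. Lgr4 kept its direction and stayed short of the threshold in each, at 0.60 to 1.08 (limma adjusted p of 0.260 to 0.913). Of Lgr6 and Znrf3, the sign turned under some. With an array left out, Lgr6 ranged from -0.082 to 0.070 and Znrf3 from -0.545 to 0.062. Znrf3 was at 0.51 with slide row as a block and within slide row 1, which are the same contrast with 1 geriatric array, and at 0.11 with a replicate block (geriatric replicates 1 and 2 counted as 2 samples). The cause was not tested.

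Over all features the 7 calls became 4 with normexp and with the authors' values, 2 when all 7 arrays had to be above background, 64 with geriatric replicates 1 and 2 counted as 2 samples, 0 with slide row as a block, 3 within row 1, and 0 to 8 with an array left out. With the replicate block 0 passed. Deviations of same-numbered arrays from their group means correlated at -0.05, 0.07 and 0.0049. Arrays of unlike number were not compared in this way, so these values do not settle whether the numbers pair the samples. The block gave 1.05 for Lgr4. Of the list medians recomputed, 83 moved by less than the spread between samples and 7 by more. Leaving out Fzd10, chosen after seeing the data, put the Frizzled and co-receptor median at -0.0085.

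Signals near background limit Lgr5, Rnf43 and the 4 ligands: the lowest signal called well above background was 25.7 to 48.1 units on geriatric arrays and 25.5 to 28.1 on young arrays.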

Other observations

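Axin2, a feedback inhibitor widely read as a beta-catenin target and singled out after its values were seen, was at -1.21 in geriatric replicates 1 and 2 (averaged), -3.45 in replicate 3 and -5.13 in replicate 4, against -3.59, -3.26 and -4.33 in the young samples. Its level was highest in the sample in which Rspo2 was well above background, and a link between these genes was not tested. In that sample the median deviation of the 10 tested beta-catenin target genes was 0.10, against -0.09 and 0.15 in the other geriatric samples and 0.04, -0.08 and 0.10 in the young samples. The log2 difference of Axin2 was 0.46 (SE 0.98, limma adjusted p = 0.953).

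The sample with the highest signal differed between the dim members, also seen after the fact. Rspo3 and Rnf43 were highest in geriatric replicate 3, Rspo2 in geriatric replicate 1 and Rspo1 in young replicate 3. The median of negative control spots was 5.47, 7.69, 10.6 and 6.90 units on the arrays of geriatric replicates 1 to 4, against 5.73, 5.89 and 5.41 on those of young replicates 1 to 3.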
